A study of Sus scrofa with 4 samples.

Results

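KIT, the receptors of platelet-derived growth factor (PDGF) and the ligands of both form a set of 8 genes, chosen by gene name: KIT and KITLG, PDGFRA and PDGFRB, and PDGFA, PDGFB, PDGFC and PDGFD. All 8 were found among the 20491 genes of the deposited table. RNA was sequenced from granulosa cells of pig (Sus scrofa) ovarian follicles, which surround and feed the oocyte, in 2 libraries of a transfection negative control and in 2 of a transfection against YTHDF2, called siYTHDF2. YTHDF2 recognises N6-methyladenosine in mRNA and speeds up the decay of the mRNAs it binds. The question behind the series is whether BDNF acts through YTHDF2 when it stimulates these cells to divide. Neither an siRNA sequence, a BDNF treatment, nor the age or breed of the animals is on the labels. Nothing there says that the libraries came from separate cultures or animals. A p-value here thus reflects the spread of 4 libraries, in part borrowed from all genes by the test. That spread may be technical.

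KIT and the PDGF receptors are class III receptor tyrosine kinases, which dimerize on binding a dimeric ligand and phosphorylate each other to recruit adaptor proteins and PI3K. KIT binds KIT ligand, also called stem cell factor. In ovarian follicles of mammals granulosa cells are known to make KIT ligand, while KIT is known from the oocyte and from theca cells. PDGFRA binds dimers of the A, B and C chains and PDGFRB those of the B and D chains. The C and D chains are secreted with a CUB domain that proteases must remove before they bind.

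YTHDF2 stood at 69.5 and 62.1 CPM (counts relative to library size, after scaling with edgeR's TMM factors) in the control and at 23.6 and 23.2 CPM with siYTHDF2, so the log2 fold change was -1.49 (adjusted p = 1.49e-05, SE 0.09). Total counts per library ran from 47209177 to 54841851. Of the granulosa markers FSHR, the follicle-stimulating hormone receptor, lay at a mean of 4.19 FPKM (the deposited level per transcript length and library size) in the control and 3.94 with siYTHDF2, and CYP19A1, the aromatase, was too low to test. Of the other granulosa markers, GJA1 lay at 608 and 516 FPKM, INHBA at 109 and 98.4 and GATA4 at 13.7 and 14.2. FOXL2 lay at 4.51 and 3.64 FPKM, INHA at 1.93 and 1.29 and AMH at 0.125 and 0.417. ACTA2, smooth muscle actin, lay at 5125 and 2528 FPKM, so this marker of contractile stroma was abundant in cells labelled granulosa. LHCGR of the theca list lay at 0.311 and 0.208 FPKM and STAR at 0.125 and 0.0951. CYP17A1 and INSL3 of the theca list were not found by symbol, so no level can be given for them. Fewer cells of a type and less RNA per cell cannot be told apart in these bulk libraries.

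With siYTHDF2 KIT, PDGFRA, PDGFC and PDGFD fell and KITLG and PDGFA rose, while PDGFB and PDGFRB did not pass the test. KIT fell by 39.5% and PDGFC fell by 38.9%, and no gene of the 8 changed by 2-fold. All 8 genes passed the filter on low counts, with counts of 242 or more in every library. Thus 6 of 8 were past an adjusted p of 0.05 in edgeR's quasi-likelihood test, beside 19.6% of the 15552 genes tested. The 8 were chosen with earlier results known, so this share is a description. Their median log2 fold change was -0.33 beside 0.00069 for all genes tested. Of all genes tested 10.6% were called lower and 9.05% higher, and the count of higher genes, 1408, went to 879 without control replicate 1 and to 791 without siYTHDF2 replicate 1.

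**Figure D1:**
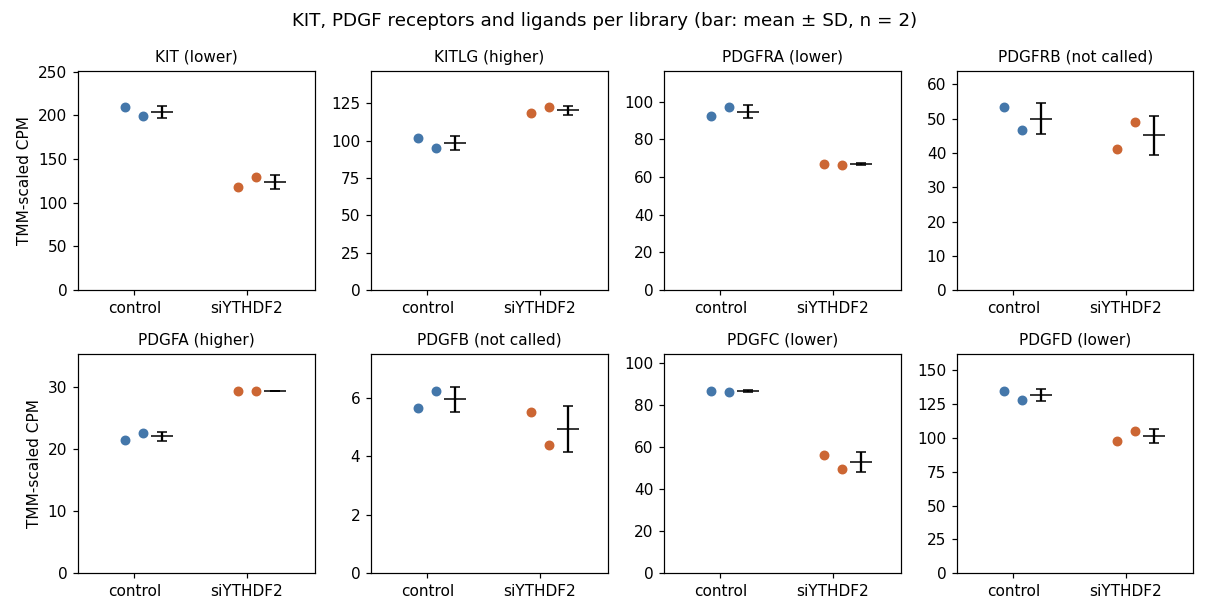
TMM-scaled CPM (vertical axes, from 0) of each of the 8 genes in the 2 control and 2 siYTHDF2 libraries; points are libraries and bars the mean ± SD. The groups overlap in the panel of PDGFRB. Those of PDGFB do not overlap, yet the gene was not called, so a lack of overlap between 2 and 2 libraries is not a call.

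Among the receptors, KIT had 209 and 199.4 CPM in the control and 118 and 129 CPM with siYTHDF2. Both siYTHDF2 libraries lay below both controls. The mean went from 204 ± 6.86 to 124 ± 7.88 CPM (mean ± SD, n = 2 each), which is -0.72 as a log2 fold change (SE 0.07, 95% interval -0.88 to -0.56, adjusted p = 0.000189). The deposited counts of KIT were 11015 and 10778 against 5618 and 7124. Among all genes tested 1380 had a lower fold change than KIT. In the deposited table KIT, ENSSSCG00000008842, spans 41402043 to 41493734 on the plus strand of chromosome 8.

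PDGFRA, the receptor known from theca and other mesenchymal cells, had 92.3 and 97.1 CPM in the control and 67.2 and 66.6 with siYTHDF2. Again the groups did not overlap, and the siYTHDF2 libraries differed little from each other. The log2 fold change was -0.50 (SE 0.07, 95% interval -0.66 to -0.34, adjusted p = 0.00146). PDGFRA, ENSSSCG00000008841, lies on the same strand of chromosome 8 from 40967493 to 41021441, with 380601 bases between its end and the start of KIT.

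PDGFRB, the receptor known from pericytes and vascular smooth muscle, had 53.3 and 46.8 CPM in the control and 41.1 and 49.1 with siYTHDF2. Its groups overlapped, since siYTHDF2 replicate 2 lay above control replicate 2. The log2 fold change of -0.15 (adjusted p = 0.391, SE 0.11) did not pass the test. Its 95% interval of -0.39 to 0.10 includes falls about as large as that of PDGFD and does not show that the gene was unchanged. PDGFRB, ENSSSCG00000022741, lies on the minus strand of chromosome 2 from 151155757 to 151192647.

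KITLG, the ligand of KIT, moved in the other direction from its receptor. It had 102 and 94.9 CPM in the control and 118 and 122 with siYTHDF2, with both siYTHDF2 libraries above both controls. The log2 fold change was 0.29 (SE 0.07, 95% interval 0.13 to 0.45, adjusted p = 0.0187). The call was lost on leaving out control replicate 2 (log2 fold change 0.24, adjusted p = 0.0837) or siYTHDF2 replicate 2 (0.26, adjusted p = 0.0820), as well as in limma on log2(FPKM + 1) (0.21, adjusted p = 0.391). KITLG, ENSSSCG00000035495, lies on the plus strand of chromosome 5 from 94017387 to 94110214.

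The ligands of the PDGF receptors divided by chain. PDGFA, whose homodimer signals through PDGFRA, had 21.5 and 22.5 CPM in the control and 29.4 in each siYTHDF2 library. The siYTHDF2 libraries lay above both controls, with a log2 fold change of 0.42 (SE 0.10, 95% interval 0.19 to 0.64, adjusted p = 0.0184). Without control replicate 1 the call was lost (0.38, adjusted p = 0.0669), as it was on leaving out siYTHDF2 replicate 1 (0.41, adjusted p = 0.0568) or siYTHDF2 replicate 2 (0.41, adjusted p = 0.0520), as well as in limma on log2(FPKM + 1) (0.29, adjusted p = 0.305). PDGFA, ENSSSCG00000007541, lies on the minus strand of chromosome 3 from 301584 to 321712.

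PDGFB, whose homodimer binds both receptors, was the least abundant of the 8. It had 5.66 and 6.25 CPM in the control and 5.50 and 4.39 with siYTHDF2. Both siYTHDF2 libraries lay below both controls by a margin that was small beside the spread within each group. The log2 fold change was -0.27 (SE 0.20, 95% interval -0.72 to 0.18, adjusted p = 0.393), an interval that includes a fall as large as that of PDGFRA. PDGFB, ENSSSCG00000033327, lies on the plus strand of chromosome 5 from 8986462 to 9007435.

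PDGFC, which signals mainly through PDGFRA, had 87.0 and 86.4 CPM in the control and 56.4 and 49.5 with siYTHDF2. The control libraries were close to each other and both siYTHDF2 libraries were lower. The log2 fold change was -0.71 (SE 0.08, 95% interval -0.90 to -0.52, adjusted p = 0.000550). PDGFC, ENSSSCG00000024960, lies on the minus strand of chromosome 8 from 45578002 to 45808748.

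PDGFD, a ligand of PDGFRB, had 135 and 128 CPM in the control and 97.2 and 105 with siYTHDF2. The groups did not overlap. The log2 fold change was -0.38 (SE 0.07, 95% interval -0.54 to -0.22, adjusted p = 0.00585). PDGFD, ENSSSCG00000014994, lies on the minus strand of chromosome 9 from 34388643 to 34621244.

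**Figure D2:**
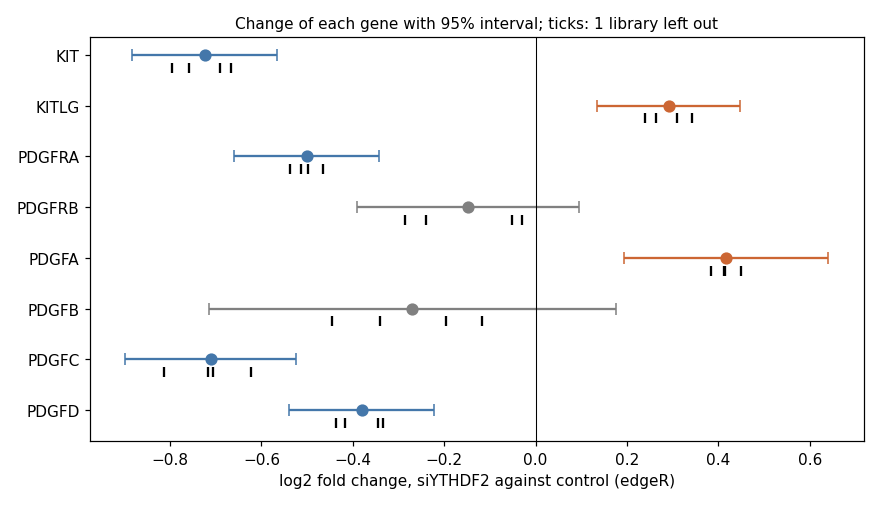
Log2 fold change of siYTHDF2 against control (horizontal axis) for the 8 genes, with its 95% interval; the ticks under each point are the values with 1 library left out. KIT, PDGFRA, PDGFC and PDGFD keep below 0 with their whole intervals, PDGFRB and PDGFB cross 0, and KITLG and PDGFA lie above it.

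The calls of KIT, PDGFRA, PDGFC and PDGFD held in all 14 alternatives tried, with log2 fold changes from -0.80 to -0.67 for KIT, -0.57 to -0.47 for PDGFRA, -0.81 to -0.62 for PDGFC and -0.45 to -0.33 for PDGFD. PDGFRB and PDGFB were called in none of them. KITLG kept its call in 10 of 14 and PDGFA in 9 of 14, and both had a positive fold change in every alternative.

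**Figure D3:**
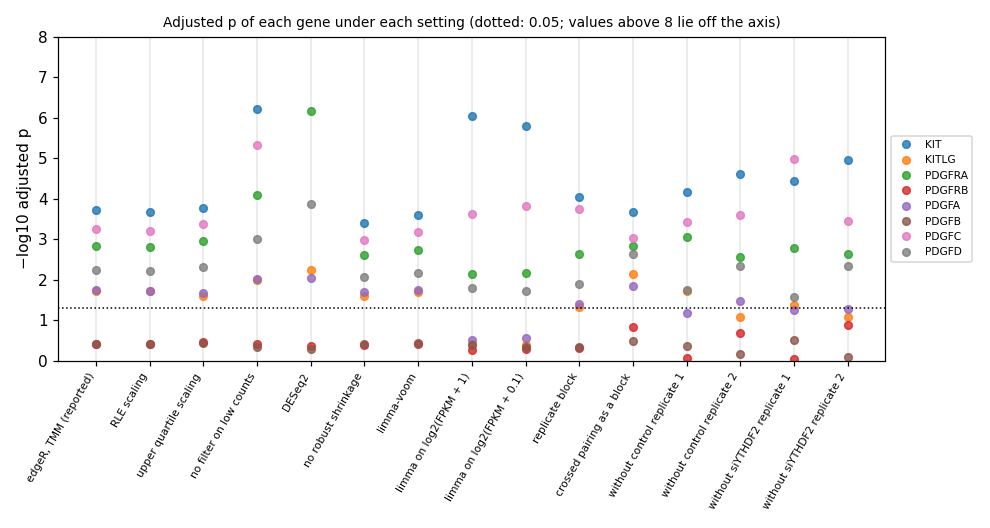
Adjusted p on a −log10 scale (vertical axis) of each of the 8 genes under the reported test and 14 alternatives (horizontal axis); the dotted line is 0.05, and KIT and PDGFC in DESeq2 lie beyond the axis. KIT, PDGFRA, PDGFC and PDGFD lie above the line throughout, PDGFRB and PDGFB below it, and KITLG and PDGFA fall below it in both limma settings on FPKM and without some libraries.

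Levels of different genes were compared per length, in the deposited FPKM. On this scale siYTHDF2 replicate 1 was low for genes in general, at 0.872 of control replicate 1 for the same share of counts, so FPKM is used here to compare genes within a library, and sums of FPKM given per library carry this scale. In both control libraries KIT was the highest of the 8, at 33.9 and 32.8 FPKM, followed by PDGFD at 27.6 and 26.6 and KITLG at 15.7 and 14.8. PDGFRA came next at 11.9 and 12.7 FPKM, then PDGFC at 10.3 in each, PDGFRB at 7.27 and 6.47, PDGFA at 4.09 and 4.33 and PDGFB at 1.92 and 2.15. No neighbours in this order overlapped between the control libraries.

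With siYTHDF2 the order at the top was less distinct. PDGFD at 17.7 and 22.1 FPKM was above KIT at 17.0 and 21.6 in each library, but the ranges of the 2 genes overlapped, and that of KITLG at 16.2 and 19.4 overlapped both. PDGFRA kept the fourth place at 7.74 and 8.88 FPKM. PDGFC at 5.92 and 6.02 overlapped PDGFRB at 4.996 and 6.92, which also overlapped PDGFA at 4.98 and 5.76, and PDGFB was lowest at 1.66 and 1.54. By mean FPKM over the 4 libraries, 12% of the genes tested lay above KIT and 63.5% above PDGFB.

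The ratio of receptor to ligand transcript changed for KIT. Within each library the FPKM of KIT was 2.16 and 2.21 times that of KITLG in the control and 1.05 and 1.11 times with siYTHDF2. These groups did not overlap, and an exact two-sided permutation test of 2 against 2 libraries cannot give a p below 0.333. For the PDGF system the summed FPKM of the 4 ligands was 2.28 and 2.26 times that of the 2 receptors in the control and 2.38 and 2.24 times with siYTHDF2, which overlapped. PDGFRA was 1.64 and 1.97 times PDGFRB in the control and 1.55 and 1.28 times with siYTHDF2, so the groups did not overlap, by a gap smaller than the difference between replicates.

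Within the PDGF ligands the share of PDGFA was higher with siYTHDF2. It made up 9.33% and 9.99% of their summed FPKM in the control and 16.4% and 16.3% with siYTHDF2. PDGFC went from 23.4% and 23.8% to 19.6% and 17.0%. The share of PDGFD was 62.9% and 61.3% in the control and 58.5% and 62.4% with siYTHDF2, which overlapped, so PDGFD remained the most abundant PDGF transcript in each library. Depth behind the FPKM values is that of the counts, and these shares are of transcripts, not of protein.

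**Figure D4:**
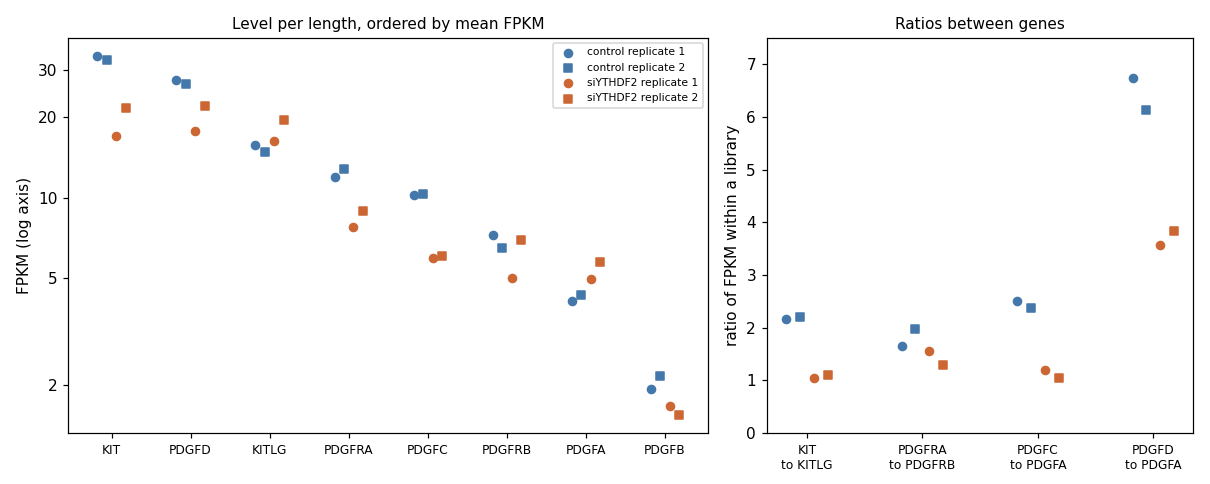
Left, FPKM on a log axis of the 8 genes in each library, ordered by mean; right, ratios of FPKM within a library, on a linear axis from 0; circles are replicate 1 and squares replicate 2. KIT stands at 2.16 and 2.21 times KITLG in the control libraries and 1.05 and 1.11 times with siYTHDF2, and the ratios of PDGFC and PDGFD to PDGFA are lower in both siYTHDF2 libraries.

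A further class III receptor and 3 ligands of the class were tested. Of the macrophage receptor CSF1R, its ligands CSF1 and IL34, and FLT3LG, the ligand of FLT3, none was called in edgeR or in any of the 14 alternatives. That stands beside 19.6% of all genes called in edgeR. None of these class III genes had an unadjusted p under 0.05 in edgeR. CSF1R, the neighbour of PDGFRB on chromosome 2, lay at a mean of 0.0381 FPKM in the control and 0.0392 with siYTHDF2, with counts of 9 and 13 in the control libraries, against 0 and 23 for siYTHDF2. The log2 fold changes were 0.38 (SE 0.22) for FLT3LG, 0.23 (SE 0.13) for CSF1 and -0.57 (SE 0.86) for IL34, and the lack of a call does not show that these genes were unchanged. FLT3 was not found by symbol, so no level can be given for it.

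Of 39 tested adaptors and effectors downstream of these receptors 3 were higher, 4 lower and 32 not called. This share of 17.9% is near the 19.6% of all genes, and the median log2 fold change was 0.01. The count of called genes ran from 2 to 14 over the alternatives. PTPN11, the phosphatase SHP2 that relays receptor signals to RAS, had 446 and 435 CPM in the control and 540 and 560 with siYTHDF2 (log2 fold change 0.32, adjusted p = 0.00740, SE 0.06). HRAS, a RAS GTPase, rose by 0.54 (adjusted p = 0.00906, SE 0.11) and MAP2K2, a MEK kinase, by 0.37 (adjusted p = 0.00422, SE 0.07). NCK2, an SH2 adaptor that binds phosphorylated PDGF receptors, fell from 89.2 ± 4.09 to 66.0 ± 3.31 CPM (adjusted p = 0.00450; mean ± SD, n = 2 each). The calls of PTPN11 (adjusted p = 0.243) and MAP2K2 (adjusted p = 0.141) were lost in limma on log2(FPKM + 1), where 2 of the 39 genes were called. Of all 15552 genes that fit called 582 higher and 1537 lower, against 1408 and 1644 in edgeR.

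Among negative regulators 2 of 16 tested genes were higher, 1 lower and 13 not called. This share of 18.8% is near the 19.6% of all genes, and the median was 0.16. CBLB, a ubiquitin ligase of the CBL family, which marks activated receptors for degradation, fell from 74.3 ± 0.904 to 53.7 ± 2.53 CPM (mean ± SD, n = 2 each), or -0.47 as a log2 fold change (adjusted p = 0.00286, SE 0.08). DOK1, a docking protein that restrains RAS, had a log2 fold change of 0.43 (adjusted p = 0.0250, SE 0.11), a call lost on leaving out control replicate 2 (adjusted p = 0.0800) or siYTHDF2 replicate 1 (adjusted p = 0.144). DOK2, its relative, was low at 0.873 and 0.666 CPM in the control and 1.79 and 2.36 with siYTHDF2 (adjusted p = 0.0257), and its call was lost on leaving out control replicate 2 (adjusted p = 0.0806) or siYTHDF2 replicate 2 (adjusted p = 0.128). The DOK1 call was also lost with limma on log2(FPKM + 1) (adjusted p = 0.166).

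Genes that process, retain or co-receive the ligands had 1 higher, 2 lower and 11 not called of 14 tested. This share of 21.4% is near the 19.6% of all genes, and the median was -0.12. A2M, a protease inhibitor of plasma known to bind PDGF, fell from 46.1 and 42.9 CPM to 10.1 and 10.2, a log2 fold change of -2.13 (adjusted p = 7.21e-06, SE 0.10). THBS1, thrombospondin 1, fell by 0.36 on the log2 scale (adjusted p = 0.00523, SE 0.07), a call lost without siYTHDF2 replicate 1 (adjusted p = 0.0541) as well as with limma on log2(FPKM + 1) (adjusted p = 0.228). PCSK5, a proprotein convertase, had 23.3 and 18.6 CPM in the control and 28.2 and 29.99 with siYTHDF2 (adjusted p = 0.0269), and its call was lost on leaving out control replicate 2 (adjusted p = 0.12) or siYTHDF2 replicate 2 (adjusted p = 0.0703), as well as with limma on log2(FPKM + 1) (adjusted p = 0.284). The activators of the latent C and D chains, chosen for display after their values were seen, were not called. PLAT, tissue plasminogen activator, which activates the C chain, had a log2 fold change of -0.13 (adjusted p = 0.219), and PLAU, urokinase, which activates the D chain, 0.12 (adjusted p = 0.527).

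Genes of the immediate response to PDGF, which also respond to many other stimuli, had 7 higher, 2 lower and 10 not called of 19 tested. That is 47.4% beside 19.6% of all genes, with a median of 0.10. EGR1, a zinc-finger factor, fell from 30.7 and 22.5 CPM to 11.2 and 9.90, a log2 fold change of -1.33 (adjusted p = 0.000570, SE 0.16). IER3, a survival gene, had 37.3 and 37.9 CPM in the control and 95.3 and 67.2 with siYTHDF2 (log2 fold change 1.11, adjusted p = 0.000811, SE 0.14). HBEGF, a ligand of the EGF receptor, rose by 0.80 (adjusted p = 0.00215, SE 0.12), and CCN2, connective tissue growth factor, fell by 0.43 (adjusted p = 0.00173, SE 0.06). The IER3 call was lost on leaving out control replicate 1 or control replicate 2, and its log2 fold change ran from 0.83 to 1.34 over the alternatives. Limma on log2(FPKM + 1) called 5 of the 19 genes. Of all 15552 genes it called 582 higher and 1537 lower, against 1408 and 1644 in edgeR.

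**Figure D5:**
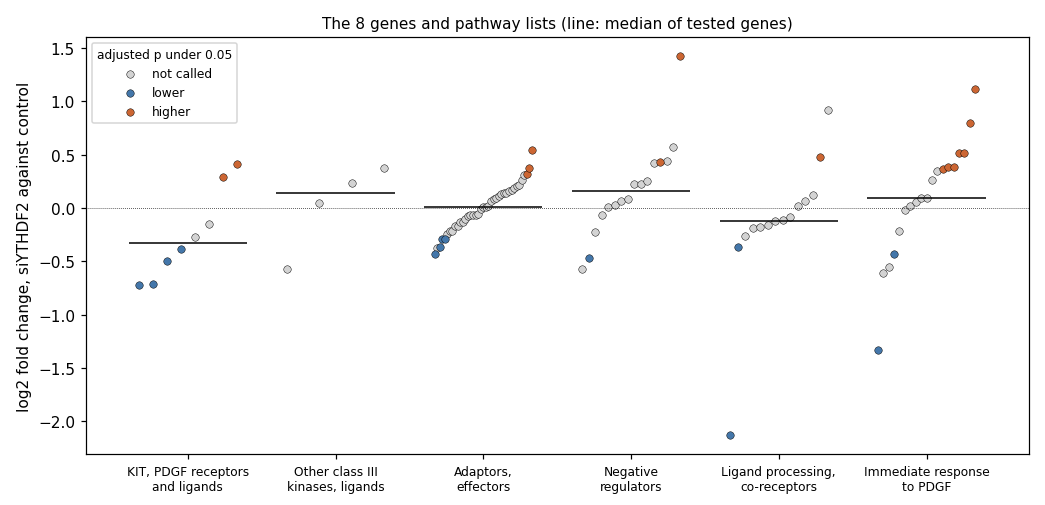
Log2 fold change of siYTHDF2 against control (vertical axis) for the 8 genes and for the tested genes of 5 pathway lists; colour gives the call at an adjusted p under 0.05 and the line the median. The 8 genes have a median of -0.33, the adaptors and effectors are centred at 0.01, and A2M is the lowest point of the ligand processing list.

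Mesenchymal cells are known to carry PDGF receptors, and part of their markers fell. Of 11 tested theca and stroma markers 5 were lower, none higher and 6 not called, beside 10.6% of all genes called lower. The lower ones were COL1A1, COL3A1, DCN, LUM and ACTA2. Those not called included NR5A1 (adjusted p = 0.71), NR2F2 (0.946) and TCF21 (0.644), and STAR and LHCGR at low levels. The summed level was 6946 and 7417 FPKM in the control and 3807 and 4222 with siYTHDF2. ACTA2 alone gave 4956 and 5294 FPKM of the former and 2411 and 2645 of the latter. COL3A1, a fibrillar collagen, fell by 1.82 on the log2 scale (adjusted p = 1.55e-06, SE 0.06), COL1A1 by 1.36 (SE 0.08) and ACTA2 by 0.95 (SE 0.07), whereas TAGLN, the actin-binding protein transgelin, was not called (adjusted p = 0.534). Of 8 tested pericyte and smooth muscle markers 4 were lower, 1 higher and 3 not called, beside the same 10.6% lower and 9.05% higher, with summed levels of 306 and 297 against 249.7 and 272 FPKM. RGS5, a marker of pericytes, fell from 63.8 and 56.2 to 9.43 and 10.3 CPM (log2 fold change -2.60, SE 0.11), and MYH11, a smooth muscle myosin, by 1.16 (SE 0.07). DES, desmin, rose by 2.005 (adjusted p = 5.24e-06, SE 0.09), while CNN1, calponin, was not called (adjusted p = 0.177) and ABCC9 of the list was at 0 in both controls. The part of these cell types in the falls of PDGFRA, PDGFC and PDGFD was not tested.

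Oocytes and mast cells are known to carry KIT. None of their 4 tested markers was called in edgeR or in the alternatives, beside 19.6% of all genes called in edgeR. None had an unadjusted p under 0.05 in edgeR. DDX4 and GATA2 among them had counts of at most 30 in any library. With so few genes and counts, the lack of a call does not show that such cells were absent or unchanged. Of the 12 oocyte markers 3 were found by symbol, with a summed level of 1.96 and 2.22 FPKM in the control and 1.81 and 2.39 with siYTHDF2. GDF9, an oocyte growth factor, made up nearly all of that and was not called (adjusted p = 0.863). DDX4, a germ cell helicase, had 14 and 7 counts in the control and 2 and 30 with siYTHDF2, and BMP15, which oocytes secrete, had 0 and 0 against 4 and 0. Of 7 mast cell markers 2 were found by symbol. The markers not found are not shown to be absent, since 6311 of the 20491 genes had no symbol. HDC, the enzyme that makes histamine, lay at 11.7 FPKM in the control and 10.1 with siYTHDF2, and GATA2, a transcription factor, at 0.0367 and 0.0505.

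Of 4 tested melanocyte markers 2 were lower and DCT (adjusted p = 0.654) and PMEL (adjusted p = 0.892) not called, beside 10.6% of all genes called lower, with summed levels of 8.58 and 7.55 against 3.10 and 3.03 FPKM. MITF, a transcription factor known in mouse mast cells to activate Kit, had 21.7 and 20.5 CPM in the control and 8.57 and 8.23 with siYTHDF2, a log2 fold change of -1.33 (adjusted p = 0.000136, SE 0.12). MLANA, a melanosome protein, was low at 1.86 and 1.499 against 0.714 and 0.472 CPM (adjusted p = 0.0345), and its call was lost on leaving out control replicate 1 (adjusted p = 0.145) or siYTHDF2 replicate 2 (adjusted p = 0.117). The pigment enzymes TYR and TYRP1 had counts of at most 10 in any library. The part of such cells, or of MITF, in the fall of KIT was not tested.

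Granulosa markers had 1 higher and 1 lower of 13 tested genes, 15.4% in all beside 19.6% of all genes. Their summed levels of 855 and 822 against 727 and 865 FPKM overlapped. SERPINE2, also called protease nexin, rose by 0.98 (adjusted p = 2.29e-05, SE 0.06), and INHBB, the inhibin beta B chain, fell by 0.69 (adjusted p = 0.00213, SE 0.11). GJA1, connexin 43, lay at 608 and 516 FPKM in the group means and was not called in edgeR (log2 fold change -0.17, adjusted p = 0.104). Endothelial markers had 1 called of 5 tested, 20% beside the same 19.6%. Their summed level was 2.54 and 2.28 FPKM in the control and 2.02 and 1.94 with siYTHDF2. PECAM1 (adjusted p = 0.258) and TIE1 (adjusted p = 0.472) of that list were not called, and VWF, the called member of 5 tested, was listed at 0 in both controls and at counts of 24 and 30 with siYTHDF2, a call lost with limma on log2(FPKM + 1) (adjusted p = 0.701) and on log2(FPKM + 0.1) (adjusted p = 0.509). Of 6 tested leukocyte markers, among them CD14 (adjusted p = 0.101) and CD68 (adjusted p = 0.997), none was called by edgeR, beside the same 19.6%. None had an unadjusted p under 0.05 in edgeR other than CD14, which stayed without a call in 13 of the 14 alternatives. PTPRC, the pan-leukocyte phosphatase, had counts of at most 7.

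The genes whose pattern over the 4 libraries was most like that of KIT were RNF41, SETDB1, DCP1A, PPP1R3E and SMTN. Likeness was the Euclidean distance between centred log2 CPM values, over 8428 other genes with a symbol and a mean of at least 10 CPM. The distance was 0.0180 for RNF41, which encodes a ubiquitin ligase, and 0.0325 for SMTN, which encodes smoothelin. DCP1A, a subunit of the mRNA decapping complex, had 63.0 and 59.4 CPM in the control and 34.8 and 38.3 with siYTHDF2. With 4 libraries in 2 groups many genes come close. PDGFC had 286 of these genes nearer to KIT than itself, PDGFRA 397 and PDGFD 652.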

How the data were processed

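The authors deposited 1 table for 4 libraries, which per the file headers gives counts per gene and FPKM per gene. The deposited counts are whole numbers, and the deposited FPKM values are levels per transcript length and library size. The counting program, its strand setting and the genome build are not given in the sources used here: Bowtie 0.12.2 and a mouse build stand in the submitters' processing notes and retinas in the labels' protocol, and none of these describes a table of pig genes. Coordinates are as deposited.

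Counts were tested with edgeR 4.0.16 in R 4.3.3 (expression filter, TMM scaling, two-sided robust quasi-likelihood test, group as the only term), with Benjamini-Hochberg adjustment over all 15552 genes tested and a threshold of 0.05. The standard error is the fold change divided by the root of F. The test was tried on simulated counts. Alternatives used DESeq2 1.42.0, limma 3.58.1, other scalings, no filter, replicate blocks and leaving out each library. No pair of replicates was treated as 1 library deposited again, since they differed by more than sampling noise (chi-square per degree of freedom 16.7 and 16.6); this does not show that they are independent samples. Of 6435 identifiers without a symbol, all but 6311 were named through the reference table.

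The 8 genes and all lists were chosen with earlier results of these data known. Named genes are the 8, YTHDF2, up to 4 called genes with the smallest p per pathway list, up to 2 such and the 2 of highest mean FPKM per marker list, and the 5 genes most like KIT. Genes outside this rule are marked where they appear or are list members given by low levels. The list members FSHR, FOXL2, GATA4, INHA, INHBA, CSF1, FLT3LG, DCN, LUM, NR5A1, NR2F2, TCF21, DCT and PMEL are also outside it.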

Additional observations from a re-analysis of the deposited data

How the results depend on the processing

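Of the 8 genes, KIT, PDGFRA, PDGFC and PDGFD kept their direction and call in all 14 alternatives, and PDGFRB and PDGFB were called in none. KITLG lost its call in limma on log2(FPKM + 1) (log2 fold change 0.21) or log2(FPKM + 0.1) (0.22), and over the 4 fits that each left out 1 library its value ran from 0.24 to 0.34. PDGFA lost its call in the same limma fits (0.29 and 0.34) and ran from 0.38 to 0.45 with 1 library left out. With 1 library left out the lone library of a group is assumed to vary like the other group.

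The limma fits on FPKM called 582 and 543 higher genes against 1408, and 1537 and 1437 lower genes against 1644. Leaving out 1 library gave 791 to 1287 higher and 1170 to 1436 lower genes. In each limma fit on FPKM the adaptors and effectors had 2 called genes instead of 7, and the immediate response genes 5 instead of 9. The ligand processing genes had 1 instead of 3 with log2(FPKM + 0.1). FPKM carries its own library scaling, which moved the median log2 fold change of all genes to -0.03 and -0.06; the cause of the lost calls was not tested.

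The replicate numbers do not pair the libraries by the labels, and same-numbered libraries deviated in opposite directions (correlation -0.263 over 9092 genes). The fit with the replicate number as a block called 1020 higher and 1361 lower genes and kept the calls of all 8 genes. A crossed pairing as a block, chosen after seeing the data, called 1946 higher and 1996 lower genes, 14 of the adaptors and effectors and 6 of the negative regulators.

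Of 37 other named genes 20 kept direction and call throughout. The sign turned for 6, none of them called: CD68 to 0.022 in limma-voom, 0.020 in the replicate block and 0.022 in the crossed pairing, GDF9 to -0.014 and -0.022 in limma on FPKM, and DDX4 to -0.11 in limma-voom. With 1 library left out CD68 ran from -0.25 to 0.30, GDF9 from -0.037 to 0.14, DDX4 from -2.17 to 1.45, GATA2 from -0.54 to 1.58, TAGLN from -0.15 to 0.0030 and TIE1 from -1.91 to 0.19. Among the 8 genes PDGFB had the lowest counts, 242 to 338 per library.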

Other observations

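KIT and PDGFRA lie in a receptor cluster on chromosome 8, with KDR, the main VEGF receptor, on the far side of KIT. Of the 14 genes of the table within 1000000 bases of KIT, a window chosen after the values were seen, 11 were tested and 2 were called, PDGFRA and KIT themselves. KDR, with 18 and 13 counts in the control libraries, was not called (adjusted p = 0.352), and CHIC2, on the other side of PDGFRA, lay at 2.55 and 2.64 FPKM in the control and 2.49 and 3.11 with siYTHDF2 (adjusted p = 0.304). Around PDGFRB on chromosome 2, 8 of 30 tested genes of the same window were called, 4 of them lower, beside 19.6% of all genes called. Among these the unnamed gene ENSSSCG00000052618, whose span from 150578808 to 150581711 on the minus strand contains the position of the hairpin ssc-mir-145, listed on the plus strand, with 356 and 384 counts in the control libraries, had a log2 fold change of -1.79 (adjusted p = 0.0010, SE 0.23).

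KEGG entries are deposited for 7 of the 8 genes, and these 7 share 5 pathways, the MAPK, Ras, Rap1, phospholipase D and PI3K-Akt signalling pathways. PDGFB carries none.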
